A study of Mus musculus with 3 samples.

Results

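The genes described here encode the nuclear subunits of the mitochondrial respiratory chain and ATP synthase, with the mobile carrier cytochrome c. They were chosen by the gene names of the array, without use of any measured value: names beginning with Ndufa, Ndufb, Ndufc, Ndufs, Ndufv, Uqcr, Atp5 or Cox4 to Cox8, and the names Sdha, Sdhb, Sdhc, Sdhd, Cycs and Cyc1. The array held 92 such names among 30458 gene names, read by 138 probes on 147 spots, and 86 of the 92 were tested beside 15428 tested genes in all. The names cover 36 subunits of complex I, 4 of complex II, 9 of complex III, cytochrome c, 20 genes of complex IV and 15 subunits of complex V. They also take in 7 names that are not subunits, namely the complex I assembly factors Ndufaf1 to Ndufaf4, Atp5s, Atp5sl and Cox4nb, a neighbour of the Cox4 gene. RNA came from mouse embryoid bodies, floating clusters in which embryonic stem cells differentiate. The samples were 3 Dido3deltaCT mutant cultures, which carry a Dido3 protein truncated at its C terminus, and 3 wild type control cultures, all at day 10, kept without the self-renewal factor LIF in low attachment plates and grown side by side. Each of 3 two-colour arrays on 1 slide held a mutant and a wild type sample, with mutant RNA in Cy3 on replicates 1 and 3 and in Cy5 on replicate 2. The labels call the samples biological replicates and do not say whether each comes from its own cell line. If a genotype was a single line cultured repeatedly, the p-values cover only spread between cultures and arrays, and genotype and line cannot be told apart.

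The respiratory chain passes electrons from NADH through complex I, and from succinate through complex II, to ubiquinone, then through complex III and cytochrome c to complex IV, which reduces oxygen. Complexes I, III and IV pump protons across the inner mitochondrial membrane, and complex V uses the gradient to make ATP. A few subunits are encoded in mitochondrial DNA and the rest in the nucleus, where factors such as NRF1 and the ETS family protein GABP act on many of the promoters. Several complex IV subunits have a common form and a form restricted to muscle, lung or testis, and differentiation of pluripotent cells is known for a shift in the balance of glycolysis and respiration.

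Promoter windows of 300 bases, running from 250 bases before to 50 bases after a gene's start, were found for 75 of the 92 genes in RefSeq, build GRCm38.p6. The letters of an NRF1 site, which are GCGC, then A and any base, then GCGC, were searched on both strands, and a match that reads the same on both counted once. They stood in the windows of 18 of the 75 genes, 24%, against 5.19% of all 27025 genes with a window. The letters CCGGAAG of an ETS site stood in 17 of them, 22.7%, against 9.93% of all. These letters do not overlap those of the NRF1 site, and a match describes the sequence without showing that a factor binds there. Windows of Sdha, the flavoprotein of complex II, and Cox6a1, the common form of a complex IV subunit, are printed because they hold several such matches, which are in capitals. Sdha (chr13:74350191-74350490, minus strand) has 3 NRF1 matches. Cox6a1 (chr5:115348909-115349208, minus strand) has 2 NRF1 matches and 1 ETS match.
Sdha: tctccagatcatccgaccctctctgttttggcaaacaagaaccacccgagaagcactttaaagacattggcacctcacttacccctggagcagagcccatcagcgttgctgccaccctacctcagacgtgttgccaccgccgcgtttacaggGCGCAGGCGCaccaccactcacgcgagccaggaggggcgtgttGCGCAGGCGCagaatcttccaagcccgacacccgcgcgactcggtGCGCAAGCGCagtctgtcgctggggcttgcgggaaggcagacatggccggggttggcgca
Cox6a1: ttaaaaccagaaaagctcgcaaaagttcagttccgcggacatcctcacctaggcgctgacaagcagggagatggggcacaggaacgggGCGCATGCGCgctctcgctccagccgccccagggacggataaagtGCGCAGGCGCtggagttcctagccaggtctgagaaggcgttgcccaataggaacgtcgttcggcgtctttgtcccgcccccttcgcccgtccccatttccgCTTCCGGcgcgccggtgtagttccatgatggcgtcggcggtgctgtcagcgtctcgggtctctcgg

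Windows of 4 genes of high or low ratio described further on are printed as well. None of the 4 held either set of letters, which says nothing of other sites. Over the 75 genes the NRF1 letters stood in only 24% and the ETS letters in 22.7%, so windows without them are common. Cox6a1, printed above with both, also had a mean log2 ratio below 0, at −0.59. No link between letters and ratio is drawn from these windows. Cox7b2 is the testis form of a complex IV subunit (chr5:71548156-71548455, minus strand). Ndufab1 (chr7:122101799-122102098, minus strand), Ndufb11 (chrX:20617570-20617869, minus strand) and Ndufa13 (chr8:69901971-69902270, minus strand) belong to complex I. The Cox7b2 window was 48.7% G and C with 10 CG steps, while the Ndufab1 window was 61.7% G and C with 27.
Cox7b2: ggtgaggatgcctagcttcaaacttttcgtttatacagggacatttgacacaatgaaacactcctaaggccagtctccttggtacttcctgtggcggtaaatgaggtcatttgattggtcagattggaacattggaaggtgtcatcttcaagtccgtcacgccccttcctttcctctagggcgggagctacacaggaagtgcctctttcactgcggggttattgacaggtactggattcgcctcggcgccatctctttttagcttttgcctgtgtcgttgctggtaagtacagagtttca
Ndufab1: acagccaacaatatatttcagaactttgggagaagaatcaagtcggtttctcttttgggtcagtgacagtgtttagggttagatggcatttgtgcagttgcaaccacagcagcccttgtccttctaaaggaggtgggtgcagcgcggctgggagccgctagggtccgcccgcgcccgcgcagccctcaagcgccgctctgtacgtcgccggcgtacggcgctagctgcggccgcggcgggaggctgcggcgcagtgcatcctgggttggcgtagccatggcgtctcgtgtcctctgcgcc
Ndufb11: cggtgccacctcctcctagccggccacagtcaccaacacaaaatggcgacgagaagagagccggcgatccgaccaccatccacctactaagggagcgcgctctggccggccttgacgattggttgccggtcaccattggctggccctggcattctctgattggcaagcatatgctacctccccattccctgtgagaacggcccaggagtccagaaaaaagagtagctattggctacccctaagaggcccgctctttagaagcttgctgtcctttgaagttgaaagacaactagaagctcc
Ndufa13: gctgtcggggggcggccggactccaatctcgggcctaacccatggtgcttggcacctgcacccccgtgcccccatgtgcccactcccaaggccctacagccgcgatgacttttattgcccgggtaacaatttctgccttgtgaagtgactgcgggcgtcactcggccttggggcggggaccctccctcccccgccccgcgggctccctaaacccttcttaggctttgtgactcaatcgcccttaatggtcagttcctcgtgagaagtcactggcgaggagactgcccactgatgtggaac

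None of the 86 tested genes was called higher and none lower in mutant embryoid bodies (limma, Benjamini-Hochberg adjusted p under 0.05 over 15428 genes). Of all genes 0.207% were called higher and 0.0907% lower, 32 and 14 genes, so a count of 0 among 86 is close to the background. At an unadjusted limma p under 0.05, 4 of the 86 were higher and 6 lower, 4.65% and 6.98%, against 11.4% and 11.3% of all genes. The median log2 ratio of mutant over wild type was −0.0048 over the 86, with medians of −0.01, −0.15 and 0.01 on replicates 1, 2 and 3, against 0.04 over all genes. The median absolute log2 ratio was 0.22 in the respiratory chain genes, 0.43 in the 15342 other genes, and 0.38 in 5300 other genes at least as bright as the dimmest subunit that is not a tissue-restricted form. These are means over arrays, in which ratios of opposite sign cancel. On single arrays the gap was smaller. Replicates 1, 2 and 3 gave 0.49, 0.42 and 0.39 in the respiratory chain genes, 0.64, 0.53 and 0.59 in the other genes, and 0.58, 0.51 and 0.56 in the bright ones. An absolute log2 ratio above 1 was reached by 3 of the 86, 3.49%, against 16.7% of all genes. Cox7b2, which entered the test only through the mutant samples, is among these 3 and among the 4 higher at an unadjusted p under 0.05. For 43 of the 86 the 95% interval of the log2 ratio lay between −1 and 1, so a change past 2-fold either way was outside the interval, and this held for 29.5% of all genes. The other intervals reach past 2-fold, and a p that misses the threshold does not show equal levels. In bulk RNA, fewer cells of a type and less RNA per cell cannot be told apart.

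**Figure D1:**
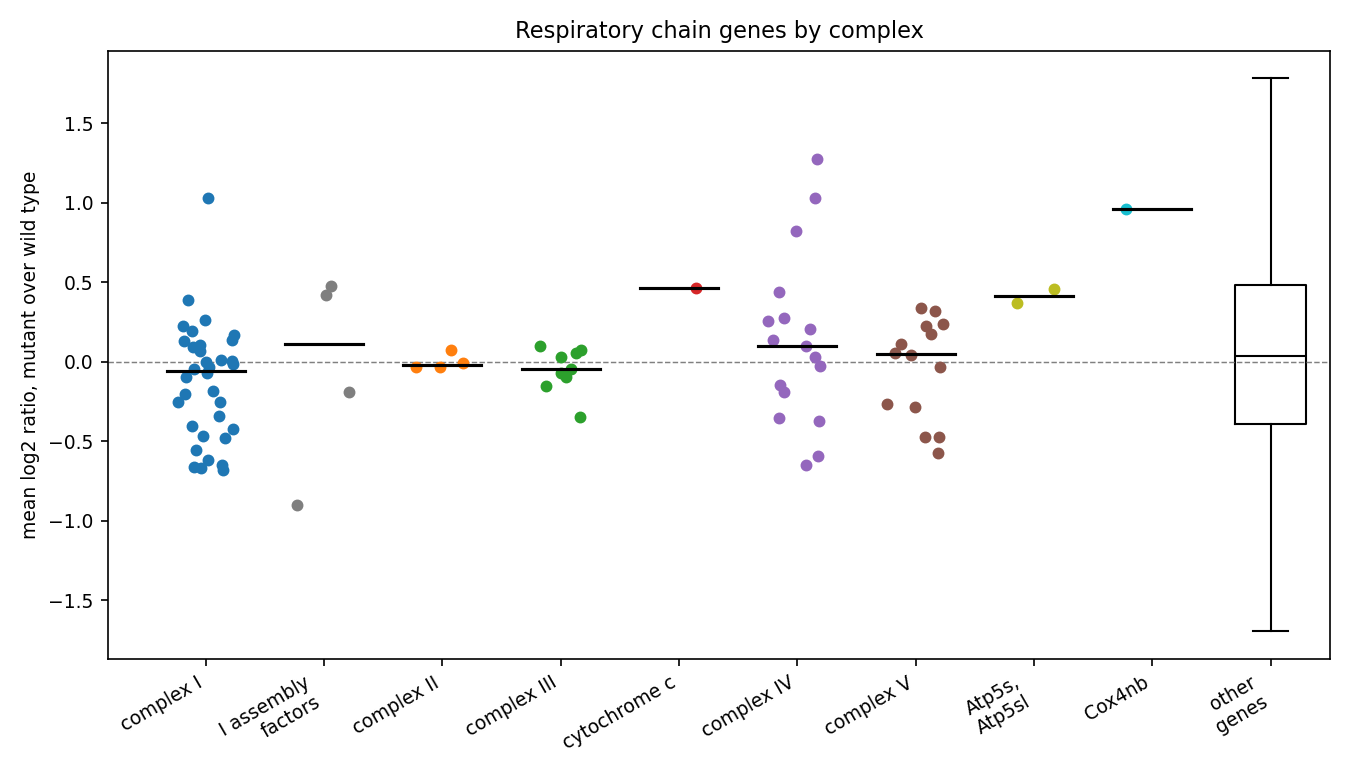
Mean log2 ratio of mutant over wild type (vertical axis) for the 86 tested genes by complex; each point is a gene over 3 arrays, black bars are medians, and the box at the right gives the median, quartiles and whiskers (1.5 times the interquartile range, points beyond not drawn) of the other genes. Complex II and III points lie between −0.35 and 0.10, and Cox7b2, Ndufab1 and Ndufa4l2 stand above 1.

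The count of 0 did not hold under every setting. Mutant RNA was in Cy3 on more arrays than in Cy5, and a mean over the arrays therefore still holds some of a gene's dye effect. When a dye term was fitted beside genotype, limma called 4 respiratory chain genes higher and 7 lower, 12.8% of the 86, against 30.7% of all genes (15.8% higher and 14.9% lower). The higher ones were Cox7b2, Ndufab1, Cox4nb and Ndufaf4, and the lower ones Cox7a2l, Ndufa13, Ndufa2, Ndufaf3, Ndufb11, Ndufs4 and Ndufv3. Without replicate 2, limma called 15 higher and 18 lower, 38.4%, against 47.3% of all genes (25.6% higher and 21.7% lower), and there genotype and dye cannot be told apart. In both fits the residual error comes only from replicates 1 and 3, where the mutant carried the same dye. With the scanner's processed signals 1 gene, Cox7b2, was called higher and none lower, against 2.46% of all genes called either way. Cox7b2 entered the test only through the mutant samples, where it is high, so its calls under these settings are a description.

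Complex I, which oxidises NADH, had a median log2 ratio of −0.06 over 34 tested subunits. The 6 core subunits, which hold the cofactors, had a median of −0.13, and the 28 accessory subunits around them −0.04. Below 0 on all 3 arrays were 10 of the 34 subunits and above 0 on all 3 arrays 3, which is 29.4% and 8.82% against 22.7% and 21.7% of all genes. Ndufb11, Ndufa2 and Ndufa13 had the lowest means and Ndufab1, Ndufb6 and Ndufc1 the highest, and none of these passed the test.

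Ndufab1 encodes the mitochondrial acyl carrier protein, which is also an accessory subunit of complex I. Its log2 intensity was 12.29, 10.92 and 11.80 in mutant replicates 1, 2 and 3, against 11.00, 10.12 and 10.80 in wild type replicates 1, 2 and 3. The mutant sample was the brighter on every array, although the groups overlapped, since mutant replicate 2 lay below wild type replicate 1. The log2 ratio was 1.03 ± 0.25 (SE, n = 3 arrays, limma adjusted p = 0.103), a 2.04-fold higher mean, and adjusted p ran from 0.00731 to 0.663 over the alternatives. Its probe lies on chromosome 7 of mm9, from 129231667 to 129231726 on the minus strand. Ndufb6 had log2 ratios of 0.55, −0.22 and 0.83 on the 3 arrays, and Ndufc1 0.42, −0.26 and 0.63, so both changed sign on replicate 2.

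Ndufb11 is an X-linked accessory subunit of the membrane arm. It had log2 intensities of 13.10, 14.21 and 12.80 in the mutant and 13.87, 14.62 and 13.67 in the wild type. Mutant replicate 2 lay above 2 of the wild type samples, so the groups overlapped, and the log2 ratio was −0.68 ± 0.25 (limma adjusted p = 0.195). Its probe is on chromosome X of mm9, from 20192453 to 20192512 on the minus strand.

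Ndufa13, an accessory subunit needed for complex I assembly, had log2 intensities of 12.83, 13.52 and 13.13 in the mutant and 13.58, 14.05 and 13.83 in the wild type. All mutant values lay below all wild type values, and the log2 ratio was −0.66 ± 0.23 (limma adjusted p = 0.190; probe on chromosome 8 of mm9, 72418102 to 72418161, minus strand). Ndufa2, an accessory subunit, had 11.86, 13.01 and 13.72 in the mutant and 12.73, 13.45 and 14.41 in the wild type. Those groups overlapped, and its log2 ratio was −0.67 ± 0.24 (limma adjusted p = 0.198).

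Over the 86 genes, the mutant samples lay entirely above the wild type samples for 4 genes and entirely below for 6, 4.65% and 6.98%, against 11% and 10.3% of all genes. The 4 were Cox7b2, which entered the test only through the mutant samples, Cox5a, Ndufaf4 and Cox4nb. The 6 were Ndufa13, Ndufs4, Ndufv3, Ndufb3, Ndufs7 and Cox7a2l. Cox5a, Cox4nb, Ndufs4, Ndufb3 and Ndufs7 were named here after their values were seen, as were Atp5l, Cox5b and Cox7b further on. Of the 6, 5 belong to complex I, which is 14.7% of its 34 tested subunits, against 10.3% of all genes. Ndufs4, an accessory subunit whose loss in mice is used as a model of complex I disease, had log2 intensities of 12.99, 12.72 and 12.83 in the mutant and 13.61, 13.28 and 13.50 in the wild type. Its arrays lay close together, at −0.63, −0.56 and −0.66, and its log2 ratio was −0.62 ± 0.23 (limma adjusted p = 0.208). Ndufv3 had −0.65 ± 0.24 at its brightest probe (limma adjusted p = 0.204), but its other tested probes gave −0.09 and 0.14.

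**Figure D2:**
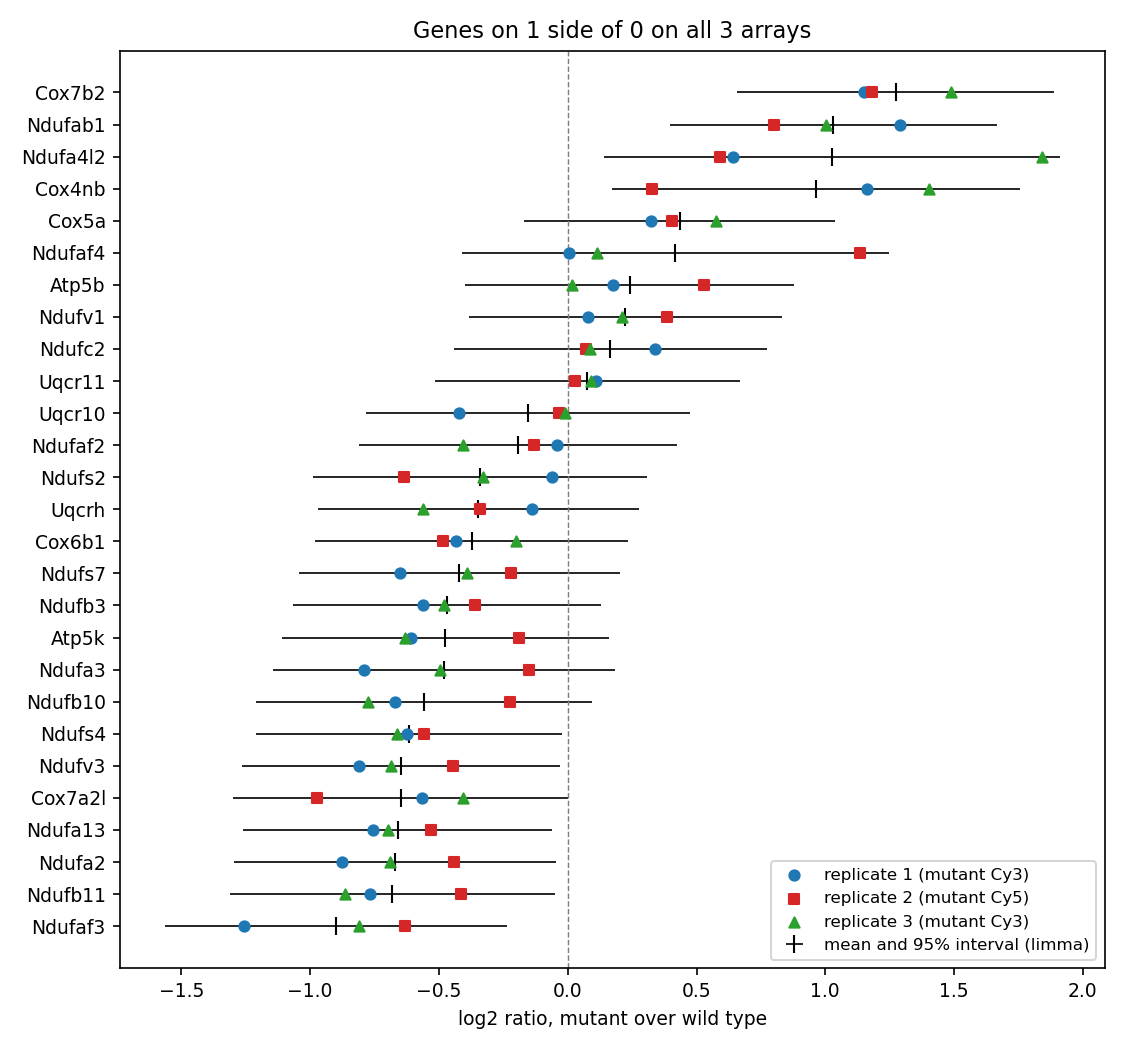
Log2 ratio of mutant over wild type (horizontal axis) for the 27 genes on 1 side of 0 on all 3 arrays; symbols are the arrays, ticks the means and lines the 95% limma intervals. The 10 genes above 0 run up to Cox7b2 at 1.27 and the 17 below 0 down to Ndufaf3 at −0.90.

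Of the named assembly factors, which build complex I and are not part of it, Ndufaf3 had the lowest mean of all 86 genes. Its log2 intensities were 8.73, 10.09 and 8.43 in the mutant and 9.99, 10.72 and 9.24 in the wild type. The mutant sample was the dimmer on each array, the groups overlapped, and the log2 ratio was −0.90 ± 0.26 (limma adjusted p = 0.137). Ndufaf4 had 0.42 ± 0.32 (limma adjusted p = 0.494), with arrays at 0.00, 1.14 and 0.11, and its other tested probe gave −0.26. A wider list of 15 complex I assembly genes, 14 of them tested, had 0 called either way and a median log2 ratio of −0.10. Its highest member was Acad9, an acyl-CoA dehydrogenase that takes part in complex I assembly, at 1.95 ± 0.24 (limma adjusted p = 0.0543).

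Complex II, succinate dehydrogenase, links the citric acid cycle to the chain. Its 4 subunits had means close to 0: the flavoprotein Sdha had −0.03 ± 0.25, the iron-sulfur protein Sdhb −0.04 ± 0.24 and the membrane anchors Sdhc and Sdhd 0.07 ± 0.30 and −0.01 ± 0.26 (limma adjusted p from 0.908 to 0.986). Sdha had log2 intensities of 12.99, 12.45 and 13.20 in the mutant and 12.88, 12.79 and 13.06 in the wild type. The 95% interval of each subunit lay between −1 and 1. At the probes used, the ratio of all 4 was above 0 on replicates 1 and 3 and below 0 on replicate 2. Sdhb and Sdhc each had a second tested probe, and neither followed that pattern. The second Sdhb probe was below 0 on every array, at −0.32, −0.20 and −0.25, and the second Sdhc probe ran the other way, at −1.20, 0.81 and −0.73.

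Complex III, the cytochrome bc complex, had a median log2 ratio of −0.05 over 9 tested genes, and 7 of the 9 intervals lay between −1 and 1. Uqcrh, the hinge protein, had the lowest mean at −0.35 ± 0.24 (limma adjusted p = 0.451) and was below 0 on every array. The accessory subunit Uqcr10 had −0.15 ± 0.25, and the core protein Uqcrc2 0.06 ± 0.24. Uqcr11 had 0.08 ± 0.23 at its brightest probe, which the array places on chromosome 1 while RefSeq has the gene on chromosome 10, and −0.06 at its other probe. A probe on another chromosome than the gene was also used for Atp5l and Cox5b, so the values of these 3 genes are uncertain where near copies share the probe. The probes of 82 other genes lie on the chromosome of their gene, and the Atp5k probe has no annotated position.

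The catalytic genes Uqcrfs1 and Cyc1 had opposite patterns over the arrays. Uqcrfs1, the Rieske iron-sulfur protein, had log2 intensities of 14.69, 12.80 and 14.17 in the mutant and 13.33, 14.87 and 13.17 in the wild type. Its ratio was 1.36 and 1.00 on replicates 1 and 3 but −2.07 on replicate 2, for a mean of 0.10 ± 0.72 (limma adjusted p = 0.952). Cyc1, the gene of the complex III cytochrome that hands electrons to cytochrome c, had ratios of −0.80 and −0.61 on replicates 1 and 3 and 1.12 on replicate 2, for a mean of −0.10 ± 0.45 (limma adjusted p = 0.919). In both genes the channel labelled with the same dye was the brighter on every array, Cy3 for Uqcrfs1 and Cy5 for Cyc1.

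Cytochrome c carries electrons between complexes III and IV. The somatic gene Cycs had log2 intensities of 14.37, 12.35 and 14.03 in the mutant and 13.29, 13.01 and 13.05 in the wild type. At the probe used, the mutant was higher on replicates 1 and 3 and lower on replicate 2, and the ratio of 0.46 ± 0.42 did not pass (limma adjusted p = 0.558). A brighter Cycs probe lost its replicate 1 spot to an outlier flag and was not tested. It gave 0.02 on replicate 2 and 0.33 on replicate 3, without the fall on replicate 2. With outlier-flagged spots kept, the Cycs ratio was 0.25. Cyct, the testis form, which the name rule leaves out, rose in the mutant. Its log2 intensity was 13.87, 13.29 and 13.69 in the mutant and 9.22, 8.34 and 8.69 in the wild type, with a log2 ratio of 4.87 ± 0.24 (limma adjusted p = 0.0195). Mutant and wild type samples lay far apart on all 3 arrays in both dye orientations. Cyct lost its call with all spots in the background model (4.12, adjusted p = 0.136), with dim probes kept (adjusted p = 0.0520) and in the authors' deposited values (4.65, adjusted p = 0.119), with adjusted p from 0.000747 to 0.136 over the alternatives.

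Complex IV, cytochrome c oxidase, had a median log2 ratio of 0.10 over 17 tested genes. The 11 common forms also had a median of 0.10, and the 5 tested tissue-restricted or inducible forms 0.28. The restricted forms include Cox7b2, which entered only through the mutant samples, and lack the dim Cox6a2, Cox8b and Cox8c. Their median is therefore a description and is not set against that of the common forms. Cox7b2, the testis form of subunit VIIb, had the highest mean of all 86 genes. Its log2 intensity was 7.94, 8.01 and 8.43 in the mutant and 6.79, 6.83 and 6.95 in the wild type, where 2 of the 3 arrays read the probe well above background. All mutant samples lay above all wild type samples, and the ratios were 1.15, 1.18 and 1.49. The mean of 1.27 ± 0.24 did not pass the test (limma adjusted p = 0.0719, range 0.00525 to 0.576 over the alternatives). Cox7b2 entered the test only through the mutant samples, where it is high, and it alone of the 86 is lost when both genotypes must be well above background, which leaves 85. Its ratio and p are therefore a description, and no fold is given for a wild type level this near background. The log2 ratio was 2.37 with the scanner's processed signals and 0.76 in the authors' deposited values. The probe is annotated to chromosome 5 of mm9, minus strand, with ends at 71834459 and 71894699, so it spans an intron. Its common partner Cox7b had 0.20 ± 0.24.

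Ndufa4l2, a paralog of Ndufa4 that is induced in hypoxia, had log2 intensities of 9.85, 11.48 and 10.42 in the mutant and 9.21, 10.89 and 8.58 in the wild type. The mutant was the brighter on each array, most of all on replicate 3, and the groups overlapped. Its log2 ratio was 1.03 ± 0.35 (limma adjusted p = 0.175), against 0.10 ± 0.26 for Ndufa4, which is now known as a subunit of complex IV. The probe is on chromosome 10 of mm9, from 126954149 to 126954208 on the plus strand.

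The other restricted forms had means nearer to 0. Cox7a1, the heart and muscle form, had log2 intensities of 9.15, 10.85 and 10.12 in the mutant and 9.50, 9.86 and 9.93 in the wild type, with a ratio of 0.28 ± 0.34 (limma adjusted p = 0.662). Its common partner Cox7a2 had 0.26 ± 0.33. Cox4i2, a lung form that responds to hypoxia, had 0.03 ± 0.25, beside −0.35 ± 0.41 for the common Cox4i1. Cox6b2, a testis form, had −0.03 ± 0.38 with arrays at −0.78, 0.86 and −0.17, beside −0.37 ± 0.24 for the common Cox6b1. The muscle forms Cox6a2 and Cox8b and the testis form Cox8c were too dim to be tested. The common partner of Cox6a2, Cox6a1, had −0.59 ± 0.37 (limma adjusted p = 0.405), and that of Cox8b and Cox8c, Cox8a, −0.15 ± 0.24.

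**Figure D3:**
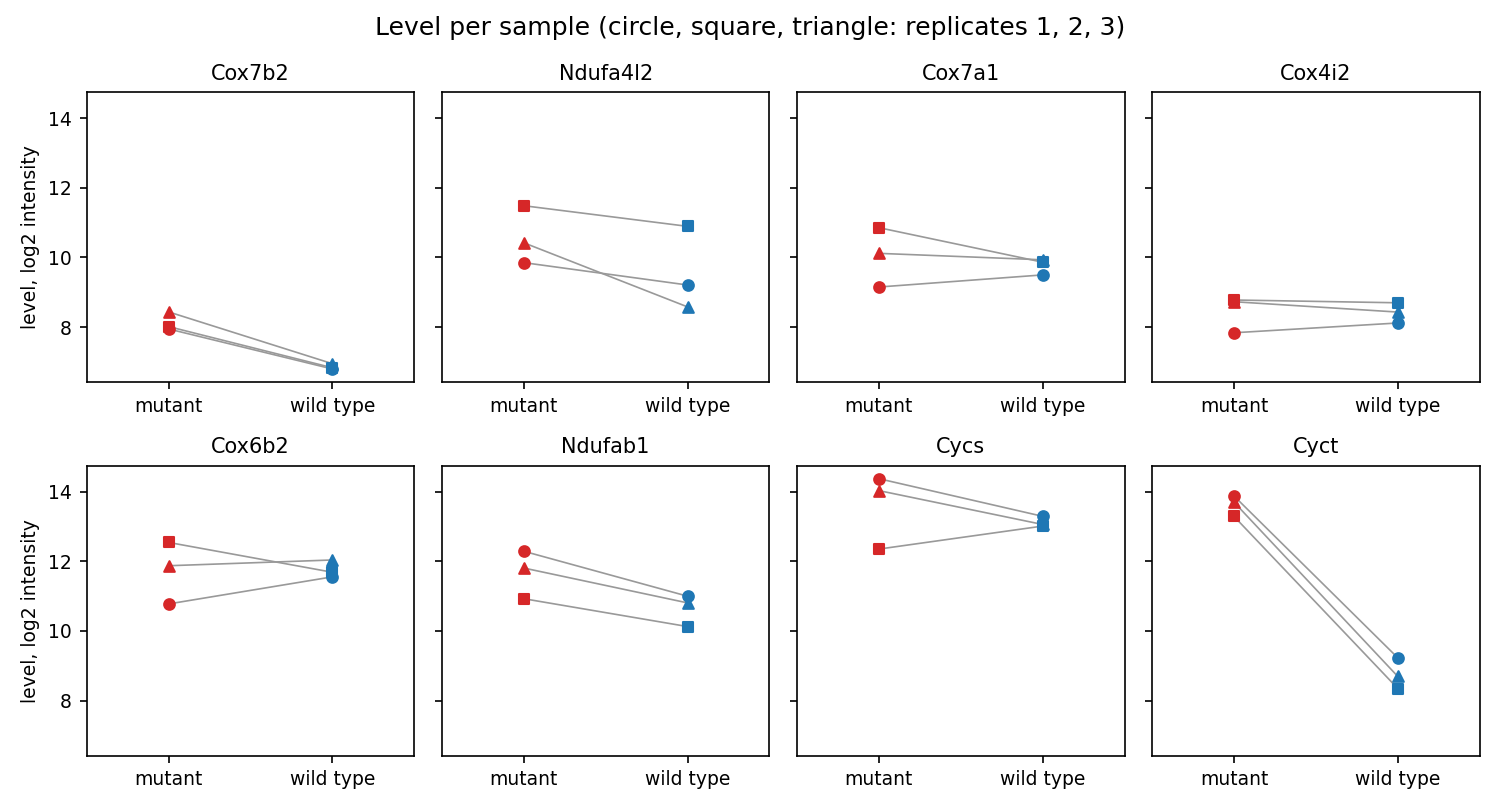
Level per sample (vertical axis, log2 intensity after normalization) for 5 tissue-restricted or inducible forms of complex IV subunits, Ndufab1, Cycs and Cyct; red symbols are mutant and blue wild type samples, and grey lines join the samples of an array. The mutant symbols of Cyct (13.29 to 13.87) and Cox7b2 (7.94 to 8.43) lie above all wild type symbols, while the other genes overlap.

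Cox7a2l, a factor that joins complexes III and IV into supercomplexes, was the lowest gene of complex IV. Its log2 intensity was 14.32, 14.00 and 14.65 in the mutant and 14.88, 14.97 and 15.06 in the wild type. The groups did not overlap, and the log2 ratio was −0.65 ± 0.25 (limma adjusted p = 0.222). Cox6c, a small subunit, had log2 intensities of 15.07, 13.43 and 14.67 in the mutant and 13.59, 13.83 and 13.29 in the wild type. Its ratio was 1.48 and 1.37 on replicates 1 and 3 but −0.40 on replicate 2, for a mean of 0.82 ± 0.45 (limma adjusted p = 0.346). Cox7c, another small subunit, was read by 3 tested probes whose means differed in sign, −0.19 at the brightest and 0.93 and 0.80 at the others. Replicate 2 opposed replicates 1 and 3 at each of the 3 Cox7c probes, but the brightest probe had the opposite sign to the others on every array. It gave −0.96, 1.18 and −0.80 on replicates 1, 2 and 3. The others gave 2.57, −2.44 and 2.67, and 1.79, −1.44 and 2.04. Cox4nb, whose gene lies beside Cox4i1 and is not a subunit, had 0.96 ± 0.31 (limma adjusted p = 0.163).

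Complex V, the ATP synthase, had a median log2 ratio of 0.05 over 14 tested subunits. Atp5g1, one of the genes for the c ring, had the highest mean at 0.34 ± 0.27, followed by Atp5j, a stalk subunit, at 0.32 ± 0.36, and Atp5b, the catalytic beta subunit, at 0.24 ± 0.25. Atp5j2 and Atp5k, both in the membrane part, had −0.57 ± 0.33 and −0.48 ± 0.25, and Atp5e, the epsilon subunit, −0.47 ± 0.33. These values come from the brightest probes. The other tested probe gave −0.07 for Atp5j2 and 0.76 for Atp5g1, and the other Atp5k probes gave −0.32 and −0.40. Atp5b had log2 intensities of 15.92, 16.25 and 15.19 in the mutant and 15.74, 15.72 and 15.17 in the wild type, and the mutant was the brighter on each array, with a difference of 0.02 on replicate 3. Limma adjusted p for these 6 ran from 0.326 to 0.636. The 4 tested stalk subunits all had ratios above 0 on replicates 1 and 3 and below 0 on replicate 2. The alpha subunit Atp5a1, with Ndufa8 and Ndufs3 of complex I, lost a spot to an outlier flag and was measured on 2 arrays, so none of the 3 was tested. Atp5a1 had ratios of −0.45 and 1.30 on replicates 2 and 3, Ndufa8 −0.63 and 0.98 on the same arrays, and Ndufs3 −0.08 and −0.54 on replicates 1 and 2.

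Replicate 2, the array with mutant RNA in Cy5, opposed replicates 1 and 3 in sign for 46 of the 86 genes, 53.5%, against 39.9% of all genes. The genes were 4 of 4 in complex II, 5 of 9 in complex III, 11 of 14 in complex V, 14 of 34 in complex I and 8 of 17 in complex IV. Across the 86 genes, which are no independent replicates, Pearson's r of the ratios was 0.895 for replicates 1 and 3, −0.333 for 1 and 2, and −0.189 for 2 and 3. Across all genes it was 0.879, 0.151 and 0.18 for the same pairs. The points share arrays and, for replicates 1 and 3, the dye orientation, and whether the dye or the cultures of replicate 2 underlie the difference cannot be told apart. Of 27 genes with more than 1 tested probe, 9 had probes that differed in sign: Cox7c, Ndufaf4, Ndufb2, Ndufb5, Ndufv3, Sdhc, Uqcr11, Uqcrb and Uqcrq.

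**Figure D4:**
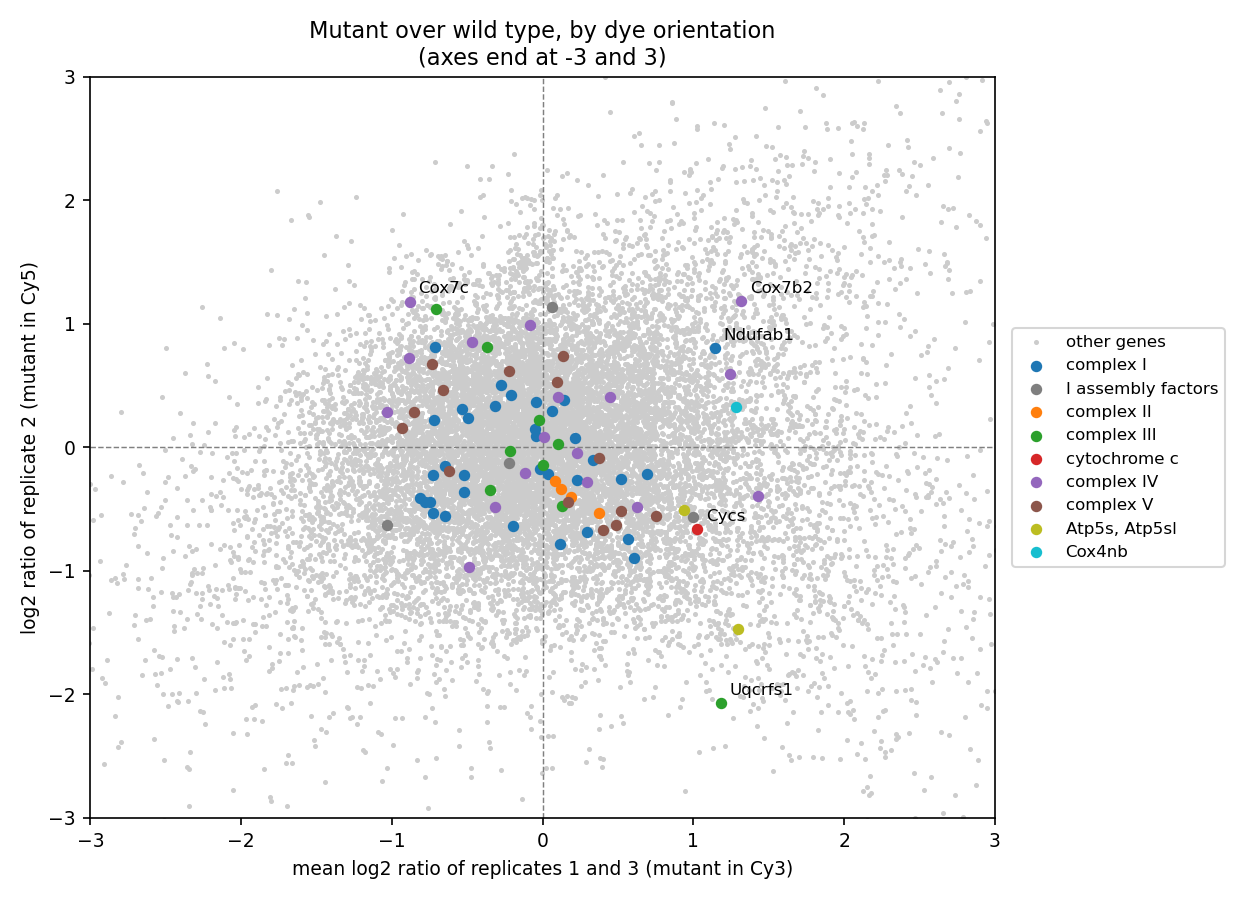
Log2 ratio of mutant over wild type on replicate 2 (vertical axis, mutant in Cy5) against the mean of replicates 1 and 3 (horizontal axis, mutant in Cy3); coloured points are respiratory chain genes by complex and grey points the other genes within the axis limits. At the probes used, Uqcrfs1 and Cycs lie at lower right and Cox7c at upper left, where the orientations oppose, and Cox7b2 and Ndufab1 at upper right.

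The subunits encoded in mitochondrial DNA were all on the array, and none of the 13 was called either way. Their median log2 ratio was 0.09, and none lay on 1 side of 0 on all 3 arrays. ND3, a membrane subunit of complex I, was the highest, with arrays at 2.67, −0.89 and 1.96 (mean 1.24 ± 0.72, limma adjusted p = 0.372), and ND5 the lowest at −0.26 ± 0.25. Of the 28 assembly genes of complexes II to IV, 0 were called and the median was 0.09. The ends of that list were Coa5, a complex IV assembly factor, at 1.43 ± 0.58 and Sdhaf1, which helps build complex II, at −1.12 ± 0.36.

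Among 10 tested genes of ATP synthase assembly and ATP export, 0 were called and the median log2 ratio was 0.17. Slc25a31, the germ line form of the ADP/ATP carrier, was the highest at 1.66 ± 0.39 (limma adjusted p = 0.0987), with arrays at 2.30, 0.69 and 2.00. Its wild type levels were low, at 6.77, 7.14 and 6.64, near those of Cox7b2, so its ratio is a description. The heart and muscle form Slc25a4 was the lowest at −0.48 ± 0.27. Of 16 tested regulators of mitochondrial biogenesis 0 were called and the median was 0.28. Esrrb, a nuclear receptor that also marks pluripotent cells, had 2.80 ± 0.32 (limma adjusted p = 0.0502), and the mitochondrial DNA polymerase gene Polg −0.59 ± 0.43. Among tested respiratory chain genes with a promoter window, the 17 with the NRF1 letters had a median log2 ratio of −0.01 and the 55 without them 0.00. The 16 with the ETS letters had a median of −0.05 and the 56 without them 0.02, and neither difference was tested.

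Some markers of other cell types were called by the same fit, and their part in the values of the respiratory chain genes was not tested. Of 10 tested pluripotency markers 2 were called higher, Zfp42 at 3.17 ± 0.26 and Dppa5a at 2.67 ± 0.24 (limma adjusted p = 0.0417 for both), and the median log2 ratio was 2.16. Klf4 went the other way, at −1.14 ± 0.31 and below 0 on every array (limma adjusted p = 0.122). Their summed level was 17.45 to 18.60 in the mutant and 15.58 to 16.33 in the wild type, in log2 intensity. Of 18 endoderm markers 1 was called lower, Rbp4 at −2.69 ± 0.25 (limma adjusted p = 0.0432). The list ran from Col4a1 at −4.43 to Apoa1 at −0.70, with a median of −2.55 and summed levels of 14.86 to 17.86 in the mutant and 18.44 to 19.83 in the wild type. Of 13 tested cardiac and muscle markers, of 17 listed, 1 was called lower, the myosin light chain Myl3 at −3.95 ± 0.35 (limma adjusted p = 0.0417). The highest was the myosin heavy chain Myh6, at 1.81 ± 0.34 and above 0 on every array (limma adjusted p = 0.0716), and the list had a median of −0.44 and summed levels of 12.36 to 13.04 in the mutant and 13.31 to 14.76 in the wild type. Of 6 tested testis germ line markers, of 9 listed, 0 were called, the median was 1.70 with a range from Ldhc at 1.04 to Dazl at 2.23, and summed levels were 12.35 to 13.65 in the mutant and 10.08 to 12.52 in the wild type. The late male germ cell genes Prm1, Prm2 and Pgk2 were not well above background on all 3 arrays of either genotype and were not tested. Wild type levels were low for some tested germ line markers, with Ldhc at 7.25, 7.18 and 6.75, near those of Cox7b2. A dim gene that enters the test only through the mutant samples tends to have a ratio above 0. The range and median of this list are therefore a description. Beside these lists stand the testis forms Cox7b2, at 1.27, and Cox6b2, at −0.03, and the muscle form Cox7a1, at 0.28. Erythroid markers (5 tested of 8) had a median of −2.74 with 1 called lower, the embryonic globin Hbb-bh1 at −3.91 ± 0.34 (limma adjusted p = 0.0417), while the transcription factor Gata1 had 0.72 ± 0.24 and lay above 0 on every array (limma adjusted p = 0.172). Neural markers (7 tested of 8) had a median of −0.95 with 0 called, from Zic1 at −5.41 to Tubb3 at 0.09. Dido1, the targeted gene, had 1.74 ± 0.27 at the probe used (limma adjusted p = 0.0580) and means from −1.92 to 1.74 over its 4 probes. Since the labels leave the ends of the deletion unstated, Dido1 probes cannot serve as a check of genotype.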

How the data were processed

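Total RNA (1 ug) was amplified, and 300 ng of cRNA in each dye were hybridised together, per the labels' protocols. The deposited scanner files come, per the file headers, from Agilent Feature Extraction 10.7.3.1 and give raw mean and median background intensity per spot and dye, processed intensity values and quality flags, with probe positions on mm9. The authors' deposited table holds log2 ratios, mutant over wild type when set against the scanner values, with column medians of −0.04, 0.01 and −0.01. Its replicate 1 column had r of 0.620 with the scanner ratios of replicate 1 and 0.775 with those of replicate 3. Its replicate 3 column had r of 0.715 with those of replicate 3 and 0.815 with those of replicate 1. Whether replicates 1 and 3, which share a dye orientation, are exchanged between table and scanner values is unknown. The submitters' processing notes name limma, and the scale and centring of that table stay unknown.

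With R 4.3.3 and limma 3.58.1, mean intensities were background-corrected by normexp with an offset of 50, and loess within each array gave log ratios (1377 control spots had weight 0). On replicate 3, 7 spots flagged as background outliers, with a local background over 10 times the median of that array, took its median background and were left out, as were outlier-flagged spots (317, 364 and 440 on replicates 1, 2 and 3). No spot was saturated. Spots were averaged per probe. A probe entered where all 3 arrays of either genotype read it well above background, and the brightest such probe stood for a gene. A two-sided test against 0 used lmFit and eBayes (2 residual and 3.04 prior degrees of freedom), and p-values were adjusted by Benjamini-Hochberg. Spots well above background made up 46.5% to 62.5% of the mutant channel and 48.5% to 74.4% of the wild type channel. The Cy5 channel had the larger share on every array. It held wild type RNA on replicate 1 (74.4% against 62.3%) and replicate 3 (63.3% against 46.5%), and mutant RNA on replicate 2 (62.5% against 48.5%). The number of arrays limits the precision. Levels are log2 intensity after Aquantile scaling, and summed levels are the log2 of summed intensities over a list's tested genes. Each array pairs a mutant and a wild type sample. The deviation of each channel from its genotype's mean gave, across genes, r of 0.515 on replicate 1, 0.0159 on replicate 2 and 0.462 on replicate 3. Code was tested on simulated data.

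The genes and lists were chosen with earlier results of these data known. Genes named are the 3 highest and 3 lowest of each complex, the restricted isoforms with their partners, the complex II and cytochrome genes, those whose probes disagree in sign, called genes and the ends of each list, Cyct and Dido1. Alternatives covered background, normalization, dye, pairing, filters, probe choice, single replicates and the authors' deposited values, and keeping outlier-flagged spots was added after seeing the data.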

Additional observations from a re-analysis of the deposited data

How the results depend on the processing

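Respiratory chain genes called higher and lower stayed at 0 and 0 in all alternatives but 3. With the scanner's processed signals 1 was higher and 0 lower, with a dye term 4 and 7, and with 1 replicate left out the counts ran from 0 to 15 and from 0 to 18, the upper ends without replicate 2. Of all genes, against 32 and 14, limma called 240 and 139 with processed signals, 2444 and 2298 when a dye term was fitted, 3956 and 3342 when replicate 2 was left out, 3 and 2 for replicate 1, 9 and 9 for replicate 3, 97 and 64 without background subtraction, 114 and 74 with an offset of 10, 4 and 3 with median centring, 63 and 46 with scaling between arrays, 67 and 36 with the mean over probes, 1 and 1 without a filter, and 3 and 1 with both genotypes above background. With all spots of replicate 3 in the background model it called 0, with 1687 genes at an unadjusted p under 0.05, and the authors' deposited values also gave 0, with 3102 such genes. With no replicate block, the channels taken as unpaired samples, the counts were 179 and 96 of all genes and 0 and 0 of the respiratory chain genes. Median centring moved the median of all tested genes from 0.04 to −0.22 and that of the respiratory chain genes to −0.27; relative to all genes that is little change, and elsewhere the median ran from −0.07 to 0.0061. The ratio of some of the 86 genes, none of them called in the usual fit, changed sign: 9 with all spots in the background model, 6 in the authors' deposited values, 14 with a dye term, 6 with the mean over probes, 26 with median centring, 4 with processed signals, 2 with an offset of 10, and 1 each without background subtraction and with scaling between arrays. With 1 replicate left out, 37 of the 86 had ratios on both sides of 0. For genes named in the text or in its lists these were, with all spots in the background model, Sdhc −0.062, Uqcr11 −0.030 and Cox4i2 −0.060; in the authors' deposited values Uqcrc2 −0.031 and Cox4i2 −0.04; with a dye term Sdhc −0.079, Cyc1 0.21, Uqcrfs1 −0.44, Cox6b2 0.19, Cox7c 0.15, Atp5l −0.071 and Ndufb5 −0.15; with the mean over probes Sdhc −0.15, Cox7c 0.51, Ndufb2 0.21, Ndufb5 −0.086, Uqcrb 0.0099 and Uqcrq 0.14; with median centring Ndufc1 −0.051, Sdhc −0.18, Uqcrc2 −0.15, Uqcr11 −0.21, Uqcrfs1 −0.15, Cox4i2 −0.23, Cox7a1 −0.089, Ndufa4 −0.13, Ndufb5 −0.14, Atp5l −0.11, Cox5b −0.085, Cox7b −0.037 and Tubb3 −0.25; and with processed signals Uqcr11 −0.059 and Cox4i2 −0.024. With 1 replicate left out, ranges of these genes that cross 0 were −0.23 to 0.48 for Atp5l, −0.10 to 0.19 for Cox4i2, −0.47 to 0.35 for Cox6b2, −0.081 to 0.59 for Cox7a1, −0.025 to 0.63 for Cox7a2, −0.88 to 0.19 for Cox7c, −0.71 to 0.25 for Cyc1, −0.12 to 0.035 for Ndufb2, −0.19 to 0.60 for Ndufb5, −0.12 to 0.12 for Sdha, −0.13 to 0.082 for Sdhb, −0.15 to 0.38 for Sdhc, −0.12 to 0.19 for Sdhd, −0.46 to 0.70 for Tubb3, −0.17 to 0.13 for Uqcrb, −0.027 to 0.098 for Uqcrc2, −0.53 to 1.18 for Uqcrfs1 and −0.14 to 0.0031 for Uqcrq, and Ndufa4 reached 0.00 at its low end, against 0.29 at its high end. The cause of these changes was not tested. Low signal limited Cox7b2, Cox6a2, Cox8b and Cox8c. The genes called higher with processed signals, with a dye term and without replicate 2 include Cox7b2, which entered only through the mutant samples.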

Other observations

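Glycolysis, the cytosolic route to ATP, and the TCA cycle, which feeds the respiratory chain, were described by the same fit. Both lists reach past the pathway they are named for. The glycolysis list also holds a glucose transporter, a monocarboxylate transporter and a pyruvate dehydrogenase kinase. The TCA cycle list also holds genes of pyruvate dehydrogenase. Of 19 tested glycolysis genes 0 were called either way by limma, with 3 higher and 0 lower at an unadjusted p under 0.05, 15.8% and 0% against 11.4% and 11.3% of all genes, and the median log2 ratio was 0.26. Above 0 on all 3 arrays were 8 of them, 42.1%, against 21.7% of all genes, and 0 were below 0 on all 3. The 8 include the kinase and the monocarboxylate transporter. Ldhb, the lactate dehydrogenase subunit of heart type, was the highest at 1.57 ± 0.24 (limma adjusted p = 0.0580), with arrays at 1.38, 1.69 and 1.64, and Tpi1, triosephosphate isomerase, the lowest at −0.54 ± 0.46. Of 15 tested TCA cycle genes 0 were called, with 2 higher and 0 lower at an unadjusted p under 0.05, 13.3% and 0%, and the median was 0.12. Idh3a, a subunit of the NAD-dependent isocitrate dehydrogenase, had 1.21 ± 0.27 (limma adjusted p = 0.0891), and Cs, citrate synthase, −0.64 ± 0.29. Replicate 2 opposed replicates 1 and 3 for 11 of the 15 TCA cycle genes and for 7 of the 19 glycolysis genes, 73.3% and 36.8%, against 39.9% of all genes. No difference between these lists was tested.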
